A study of Homo sapiens with 4 samples.

Results

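The NFI family consists of the 4 genes NFIA, NFIB, NFIC and NFIX, taken here by name out of 20162 protein-coding genes of GENCODE 44 on GRCh37. Around them, MEIS1 and MEIS2 binding was mapped by ChIP-seq, the sequencing of DNA pulled down with antibodies against a protein, in human neural stem cells (hNSC) that were purchased, grown without serum and left untreated. The series holds 2 MEIS ChIP replicates and 2 Input samples of sheared chromatin that entered the values through the authors' peak calling. All are from untreated cells of this line, so there is no treated group. The paper states that 2 batches of the cells were handled in parallel and gives alternative wash protocols. The labels do not say which batch or wash belongs to which replicate. An anti-MEIS1/2A and an anti-MEIS1 antibody were mixed for the pull-down, and a peak therefore does not tell which of the proteins was bound. ChIP gives no expression level, so from these data neither the identity of the cells nor the activity of the NFI genes could be checked against marker genes. The paper also measured RNA in hNSC after knockout or overexpression of MEIS1 or MEIS2, and those values were not used here. The depth of each library is unknown, since a peak list holds no read counts.

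For each gene, the window was the gene body with 250 kb on each side. A peak or site was counted when its summit, the position of highest enrichment, lay in the window. The authors' list of sites that were reproducible between the replicates, made with the irreproducible discovery rate (IDR), holds 5169 sites, and 8 of them lay in the windows of the NFI genes. NFIB held 6 of the 8 sites, NFIA and NFIX held 1 each, and NFIC held none. The peaks called in each replicate on its own numbered 37 in replicate 1 and 53 in replicate 2 over the 4 windows, out of 36796 and 47449 in all.

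Nuclear factor I (NFI) proteins are DNA-binding proteins that pair with themselves or with each other and recognise a palindrome made of the word TTGGC and its reverse complement. In the developing brain, NFIA and NFIB are known for the switch of neural stem cells from making neurons to making astrocytes, NFIX for the maturation and quiescence of neural stem cells, and NFIC is best known from tooth root formation. MEIS proteins are homeodomain factors that bind TGACAG, often next to a PBX partner.

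In 5 of the sites, printed here with 60 bases on each side of the summit, TGACAG lies within that stretch. The NFIX site is added because it was the strongest of the 8 and lacks the word. All 6 sequences are from the forward strand of GRCh37, 5′ to 3′, and capitals mark TGACAG on either strand, so that CTGTCA is the same word on the reverse strand. They come from chr1:61140224-61140344 (NFIA site 1), chr9:14353613-14353733 (NFIB site 1), chr9:14298525-14298645 (NFIB site 3), chr9:14108125-14108245 (NFIB site 4), chr9:14027281-14027401 (NFIB site 5) and chr19:13274711-13274831 (NFIX site 1). NFIB sites are numbered in the direction of transcription.
NFIA site 1: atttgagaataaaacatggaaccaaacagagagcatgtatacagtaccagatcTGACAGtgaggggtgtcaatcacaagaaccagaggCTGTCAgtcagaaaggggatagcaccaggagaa
NFIB site 1: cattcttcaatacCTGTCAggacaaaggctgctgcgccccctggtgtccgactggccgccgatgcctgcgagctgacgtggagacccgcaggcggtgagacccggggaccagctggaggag
NFIB site 3: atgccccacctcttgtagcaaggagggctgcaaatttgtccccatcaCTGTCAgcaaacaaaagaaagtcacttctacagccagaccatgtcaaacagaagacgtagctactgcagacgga
NFIB site 4: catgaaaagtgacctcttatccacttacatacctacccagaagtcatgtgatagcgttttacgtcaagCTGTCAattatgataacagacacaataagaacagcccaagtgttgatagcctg
NFIB site 5: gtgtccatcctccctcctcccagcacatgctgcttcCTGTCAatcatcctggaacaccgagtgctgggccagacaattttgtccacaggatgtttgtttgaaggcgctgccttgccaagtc
NFIX site 1: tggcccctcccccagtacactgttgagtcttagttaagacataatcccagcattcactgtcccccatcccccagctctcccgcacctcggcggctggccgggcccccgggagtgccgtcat

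The first question was how many sites each gene had for its size, since a longer window collects more sites. At least 1 reproducible site was found in the window of 3 of the 4 NFI genes, against 47.5% of all protein-coding genes. At least 6 sites were found at 1 of the 4, NFIB, against 0.833% of all protein-coding genes. The limit of 6 is the count of NFIB itself, and the 0.833% covers genes of all lengths. That contrast is therefore a description and no test, and 3.5% of the genes compared with NFIB for length reached 6. Each gene was then set beside the 200 protein-coding genes closest to it in length of the body. Of these, 20.5% had no site for NFIA, 27% for NFIB, 42% for NFIC and 48.5% for NFIX. Having at least 1 site was thus not unusual at these lengths. The percentile given is the share of those genes with fewer sites, ties counting 0.5, and it is a description with no test because neighbouring windows share sites.

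NFIB, with a body of 317 kb, had 6 sites, while the genes of like length had a median of 1 and a maximum of 17. Its percentile was 97, and 7 of the 200 reached its number. NFIA has the longest body of the family, 598 kb, and had 1 site, against a median of 2 at genes of like length. This placed NFIA at percentile 32, with 159 of the 200 genes reaching its number. NFIC, with a body of 155 kb, shared its lack of sites with 84 of the 200 genes of like length and lay at percentile 21. NFIX, with a body of 103 kb, lay at percentile 61.5, since 97 of the 200 genes had no site. The number of sites therefore did not follow body length within the family, and NFIB alone lay in the upper tail of genes of like length. Per megabase of window, NFIB held 7.34 sites, NFIX 1.66 and NFIA 0.911, against 1.67 over the whole assembly. These counts have no replicate error. Of the 6 NFIB sites, 1 reached an IDR of 0.001 or less, and at that stricter limit NFIB lay at percentile 59.25. From the strongest peaks of replicate 2 alone, NFIB kept 3 sites and lay at percentile 82.

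**Figure D1:**
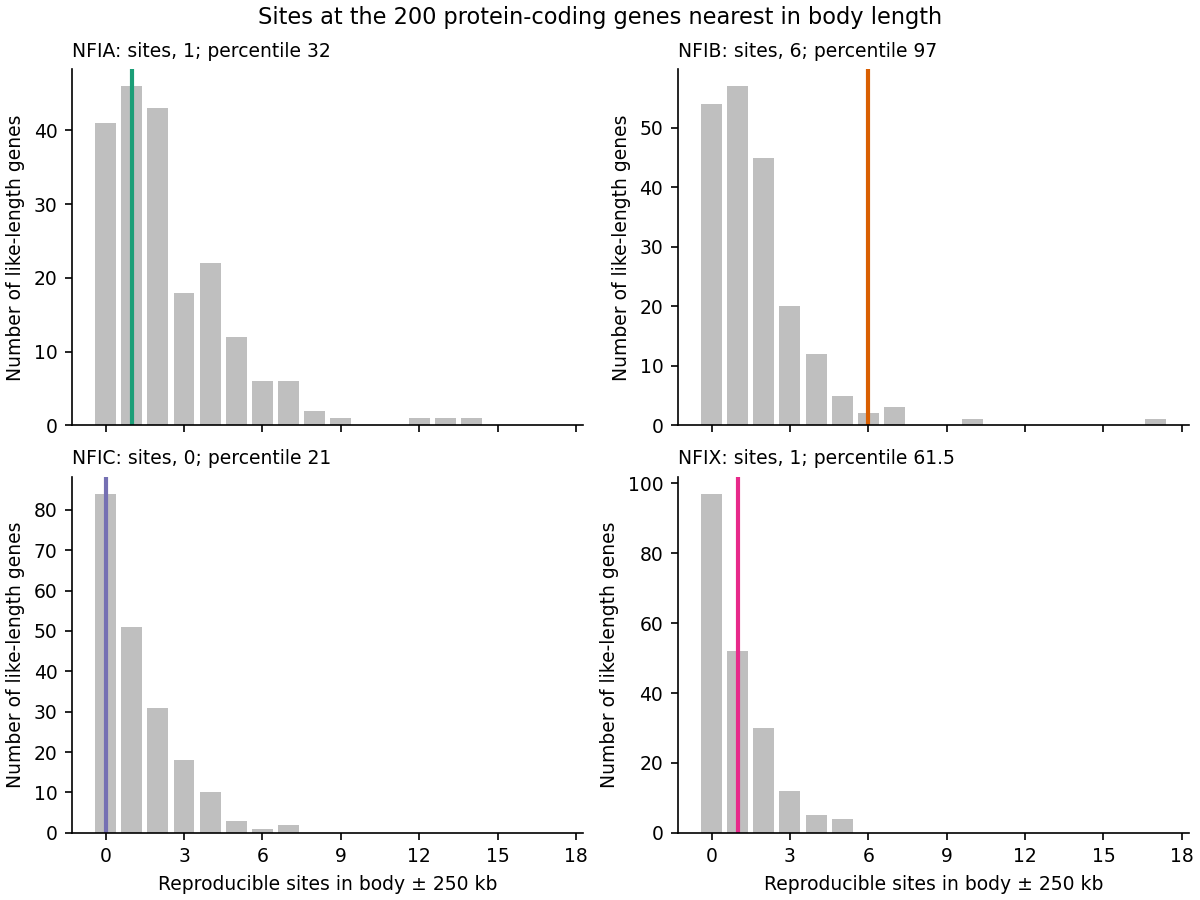
Histograms of the number of reproducible sites within the body and 250 kb on each side, over the 200 protein-coding genes closest to each NFI gene in body length; the y axis counts genes and the coloured line marks the NFI gene. NFIB with 6 sites lies at percentile 97, while NFIA, NFIC and NFIX lie at percentiles 32, 21 and 61.5.

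The bodies and windows differ in more than length. NFIA lies on chromosome 1 from 61330931 to 61928460 on the forward strand, and NFIB on chromosome 9 from 14081842 to 14398982 on the reverse strand. No other protein-coding gene had its canonical start in the windows of NFIA and NFIB, whose GC contents were 40.0% and 38.6%. NFIC lies on chromosome 19 from 3314401 to 3469215 and NFIX on the same chromosome from 13106289 to 13209610, both on the forward strand. Their windows held the starts of 17 and 22 other protein-coding genes and had GC contents of 56.1% and 53.0%. A site in the window of NFIC or NFIX therefore has many other genes near it. The part of GC content or of gene density in the number of sites was not tested.

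NFIB was the gene with sites inside its body. Of its 6 sites, 4 lay in the body and 2 beyond its 3′ end. Strength is given as the authors' −log10 p of the strongest overlapping peak in each replicate, and as the enrichment of the summit over input, in folds. The canonical transcript of NFIB starts at 14314140, which is 84.8 kb inside the annotated body because longer transcripts start further upstream. All distances are from the summit, and no summit of the 8 sites lay in an exon of any annotated transcript.

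NFIB site 1 (chr9:14353338-14353983) lay in the body 39.5 kb upstream of the canonical transcription start site (TSS). Its −log10 p was 18.7 (replicate 1) and 21.1 (replicate 2), at 4.61-fold and 7.87-fold enrichment. NFIB site 2 (chr9:14320190-14321971) was the nearest to the canonical TSS, 6.96 kb upstream of it, and lay 845 bp downstream of the start of an alternative NFIB transcript. Site 2 had a −log10 p of 32.1 and 18.8, at 6.35-fold and 7.44-fold enrichment. Both sites also lay within NFIB-AS1, a long non-coding RNA gene on the opposite strand (14317072 to 14358489), outside its exons.

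NFIB site 3 (chr9:14298239-14299111) lay in intron 2 of the 10 introns of the canonical transcript, 15.6 kb downstream of its TSS and 1645 bp downstream of another alternative start. It had a −log10 p of 16.2 and 26.7, at 3.86-fold and 7.87-fold enrichment. NFIB site 4 (chr9:14107779-14108588) lay in the last intron, 206 kb from the canonical TSS. Site 4 was the strongest of the NFIB sites in each replicate, with a −log10 p of 52.4 and 37.2 at 7.46-fold and 10.7-fold enrichment, and the replicates placed its summit on the same base. It was the NFIB site with an IDR under 0.001, at 0.000186.

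NFIB site 5 (chr9:14026538-14027667) lay 54.5 kb beyond the 3′ end, within a long non-coding RNA gene (ENSG00000235533) and outside its exons. It had a −log10 p of 18.0 and 23.9, at 4.59-fold and 8.96-fold enrichment. NFIB site 6 (chr9:13950461-13951292) lay 131 kb beyond the 3′ end and had a −log10 p of 28.8 and 18.9, at 5.96-fold and 6.86-fold enrichment. The canonical TSS of NFIB was the nearest protein-coding start of all 6 sites. Of the 6 sites, 3 had the higher −log10 p in replicate 1 and 3 in replicate 2. Site 4 was at the top of both replicates, but below it they did not rank the NFIB sites alike. Among all 5169 sites, site 2 ranked 2710 in replicate 1 and 4721 in replicate 2, and site 3 ranked 4605 and 3676.

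The 6 NFIB summits were spread over 403 kb. The gaps between neighbouring summits, from the 3′ side, were 76.5, 80.8, 190.4, 22.5 and 32.6 kb. None of the 8 NFI sites had another site within 10 kb, against 11.5% of all 5169 sites. Within 25 kb, 2 of the 8 had a neighbour, NFIB sites 2 and 3, against 22.4% of all sites, and within 50 kb 3 of the 8 did (37.5%), against 34.4%. Runs of 6 sites within a span as short as that of NFIB held 683 of the 5169 sites, or 13.2%. The 6 NFIB sites were picked because they lay in the same window, so their short span is not independent of the high count there. The span is therefore no separate evidence that the sites are grouped. The shares of NFI sites with a neighbour within 25 kb and within 50 kb were near those of all sites. No 2 of the NFIB sites were within 10 kb of each other. The sites of NFIA and NFIX had their nearest other site at 171 kb and 631 kb.

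**Figure D2:**
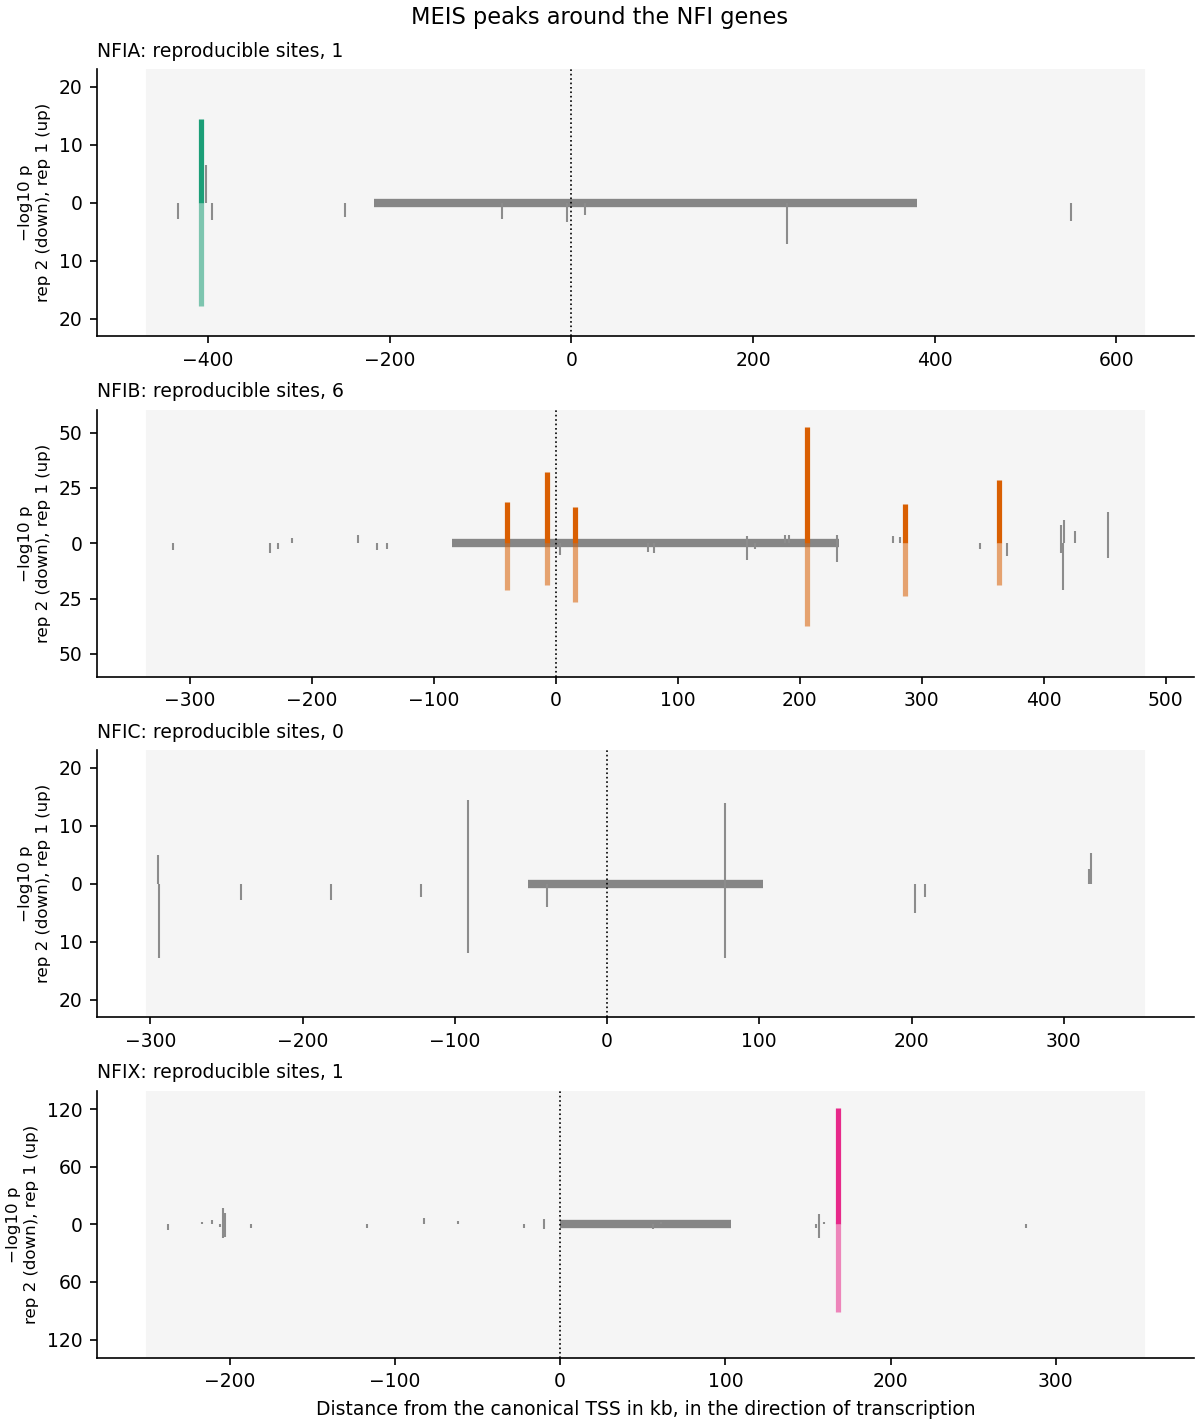
Peaks around each NFI gene by distance of the summit from the canonical TSS in kb (x axis, in the direction of transcription), with −log10 p upward for replicate 1 and downward for replicate 2 on a scale of its own per gene; coloured bars are reproducible sites, thin grey lines other replicate peaks, the thick grey bar the gene body and the shading the window. The 6 NFIB sites run from 39.5 kb upstream to 363 kb downstream of the TSS, and no reproducible site lies in the bodies of NFIA, NFIC and NFIX.

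NFIA had a single reproducible site, and it lay outside the gene. NFIA site 1 (chr1:61139931-61140646) was 191 kb upstream of the body and 408 kb upstream of the canonical TSS at 61548233. It lay within a long non-coding RNA gene (ENSG00000231252) that runs on the reverse strand from 61333681 to 61125303, outside its exons, and the nearest protein-coding start was that of NFIA. Its −log10 p was 14.5 (replicate 1) and 17.8 (replicate 2), at 4.35-fold and 7.43-fold enrichment, the lowest of the 8 sites by the merged −log10 p. Over the whole NFIA window, replicate 1 had 2 peaks, against a median of 14 at genes of like length, and 198 of the 200 had that number or a higher one. Replicate 2 had 9 peaks there, against a median of 19, at percentile 13.75. NFIA thus had few peaks of any kind for its length in either replicate, at percentile 1.75 in replicate 1.

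Inside the NFIA body, replicate 1 had no peak and replicate 2 had 4. The strongest of these (chr1:61785691-61786186) was in intron 3 and reached 7.03 by −log10 p. Another (chr1:61543496-61543902) lay 0.647 kb from the start of an alternative NFIA transcript with a −log10 p of 3.27 and a −log10 q of 0.963, which does not reach a q of 0.05. None of the 4 had a counterpart in replicate 1, so binding in the NFIA body was not reproduced in these libraries. Without read counts, absence of a peak cannot be told apart from binding below what the depth could show.

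NFIX had the strongest site of the family, and that site was nearer to another gene. NFIX site 1 (chr19:13274352-13275610) reached a −log10 p of 121 (replicate 1) and 91.2 (replicate 2), at 15.8-fold and 21.0-fold enrichment, with summits 2 bp apart. By the merged −log10 p it ranked 794 of 5169, and its IDR was 1e-05. The site lay 65.2 kb beyond the 3′ end of NFIX and 168 kb downstream of its TSS, and no annotated gene covered the summit. The nearest protein-coding start was that of IER2, an immediate early gene, 13.5 kb away. It also had the highest GC content around the summit among the 8 sites, 63.6% over 500 bp, against 35.0% at NFIB site 4 and a median of 42.0% over all sites.

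NFIC had no reproducible site, although its window was not empty. Replicate 1 had 5 peaks and replicate 2 had 9, against medians of 9 and 12 at genes of like length. In 3 places the replicates overlapped. One of them lay in intron 6 of NFIC (chr19:3443931-3444717), 77.7 kb past the canonical TSS, where −log10 p was 13.9 and 12.7 and the summits were 237 bp apart. The second lay in intron 3 of CELF5 (chr19:3274783-3275652), which encodes an RNA-binding protein, with 14.5 and 11.97. The third lay upstream of TLE5 (chr19:3071628-3072143), a gene of the TLE family of co-repressors, with 4.97 and 12.7. The site of the list nearest to the NFIC TSS was 330 kb upstream of it, outside the window (chr19:3035692-3037018), with a −log10 p of 199 and 119, and lay 7.02 kb from the TSS of TLE2.

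Apart from the NFIX site and NFIB site 4, the sites of the family were weaker than most of the list. The median merged −log10 p of the 8 sites was 18.7, against 29.3 over all 5169, and the ranks of the NFIA and NFIB sites ran from 2031 to 4856. An IDR of 0.001 or less was reached by 2 of the 8, against 60.4% of all sites. Median fold enrichment was 5.28 in replicate 1 and 7.87 in replicate 2, against 6.38 and 11.5. The median width was 852.5 bp against 1086 bp, with NFIB site 2 the widest at 1782 bp. Replicate 1 had the higher −log10 p at 4 of the 8 sites and at 35.8% of all sites. In each of the 8, the merged value equalled the lower replicate value, so the weaker replicate set the rank. NFIB site 2, for example, had a −log10 p of 32.1 in replicate 1 and was ranked at 18.8.

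**Figure D3:**
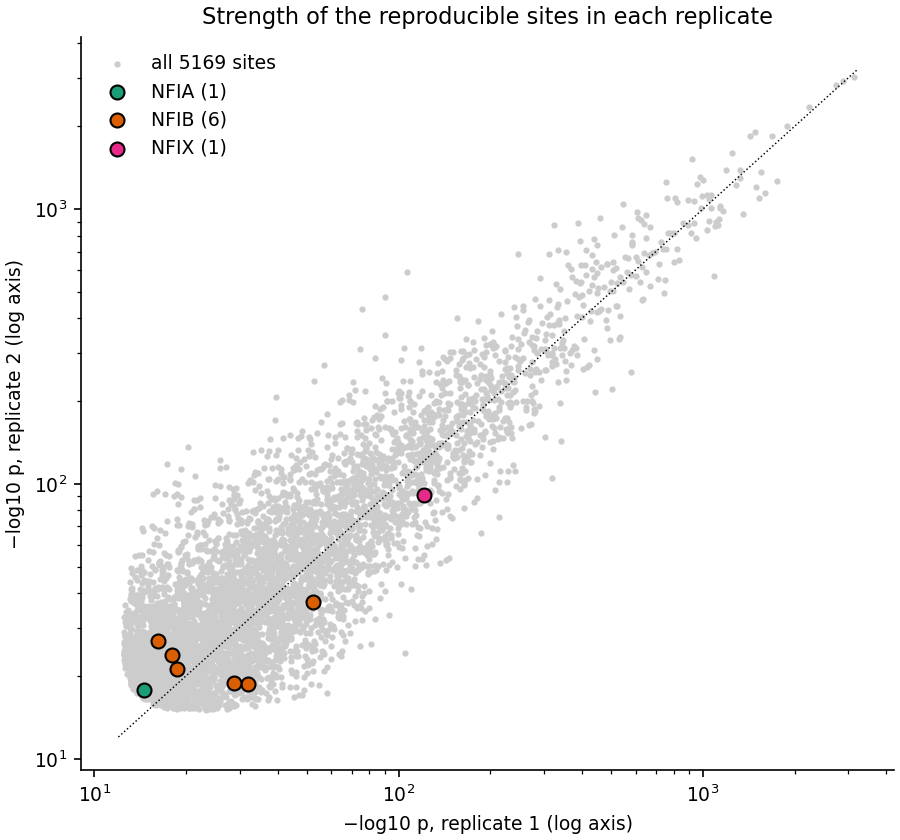
−log10 p of each reproducible site in replicate 1 (x axis) and replicate 2 (y axis), both on log axes, for all 5169 sites in grey and the NFI sites in colour; the dotted line marks equal values. The NFIA site and NFIB sites 1, 3 and 5 lie toward the weak end in both replicates, NFIB sites 2 and 6 do so in replicate 2 but rank 2710 and 2993 of 5169 in replicate 1, and the NFIX site at 121 and 91.2 lies above all of them.

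Most peaks called in 1 replicate around the NFI genes were not in the list. Of the 37 peaks in replicate 1, 8 overlapped a listed site (21.6%, Wilson 95% interval 11.4 to 37.2), and of the 53 in replicate 2, 8 did (15.1%, 7.85 to 27.1). Over all peaks the shares were 14.1% and 10.9%, both inside these intervals of the pooled windows. The genes differed, with 6 of 18 and 6 of 22 peaks in the list at NFIB, and 1 of 2 and 1 of 9 at NFIA. NFIC had 0 of 5 and 0 of 9, and NFIX 1 of 12 and 1 of 13. At NFIB the shares were 33.3% (16.3 to 56.3) and 27.3% (13.2 to 48.2), against 14.1% and 10.9% of all peaks. The same 6 sites enter both shares, and NFIB is singled out here because it held most of the listed sites. Neighbouring peaks of 1 locus are not independent draws, so these intervals do not test the difference. A peak of the other replicate overlapped 20 of the 37 (54.1%, 38.4 to 69.0) and 20 of the 53 (37.7%, 25.9 to 51.2), against 49.0% and 38.0% over all peaks. The shares of all peaks lay inside these intervals too. Peaks of the 2 replicates thus overlapped in the pooled NFI windows about as often as elsewhere, within the error that the number of peaks allows. A replicate 1 peak shared with replicate 2 was found at all 4 NFI genes, against 86.6% of all protein-coding genes, so this count is close to the background.

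There were 12 shared pairs of peaks outside the list, 5 at NFIB, 3 at NFIC, 4 at NFIX and 0 at NFIA. In 7 of them both replicates had a −log10 p of at least 5, and 0 of them lay within 1 kb of a start of the NFI gene itself. At NFIB, one pair (chr9:14083119-14083624) lay in the 3′ untranslated part of exon 11 with 3.95 and 8.59, and one (chr9:14157338-14157773) in intron 3 with 3.10 and 7.60. The other 3 lay 182 to 221 kb beyond the 3′ end, the strongest in replicate 1 with 14.1 and 6.44 (chr9:13860834-13861511) and the strongest in replicate 2 with 10.3 and 21.1 (chr9:13897238-13898009). At NFIX, one pair (chr19:13095677-13096473) lay 10.03 kb upstream of the TSS with 5.45 and 4.68, which was the nearest shared pair to any canonical NFI start outside the list. The remaining NFIX pairs lay at other genes. One (chr19:12901871-12902872) was 0.152 kb upstream of the TSS of JUNB, a subunit of the AP-1 transcription factor, with 16.9 and 13.8, one (chr19:12903298-12904034) was in the exon of JUNB with 11.3 and 13.4, and one (chr19:13262438-13263204) was in intron 1 of IER2 with 10.5 and 13.8. The shared peaks of the NFIX window that exceeded 10 in each replicate therefore all lay at JUNB, at IER2 or at the listed site beyond it.

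**Figure D4:**
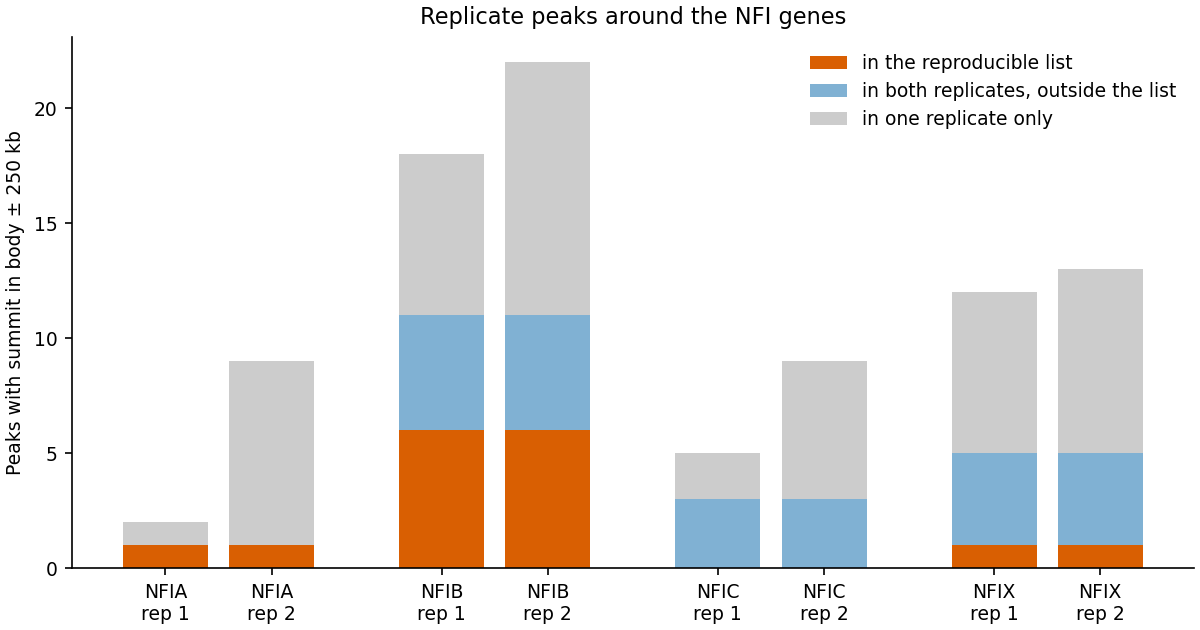
Number of peaks with a summit in the body or within 250 kb on each side (y axis) for each NFI gene and replicate, split into peaks in the reproducible list, peaks in both replicates outside it, and peaks in one replicate only. NFIB has the most, 18 and 22, and NFIA has 2 in replicate 1 and 9 in replicate 2.

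The sequence around the summits was searched on both strands in windows of 500 bp for short consensus words, and the share over all 5169 sites in windows of the same length is given as the comparison. The MEIS word TGACAG was present at 6 of the 8 NFI sites (75%, Wilson 95% interval 40.9 to 92.9) and at 58.3% of all sites. It was present at NFIA site 1 and at 5 of the 6 NFIB sites, and absent in the windows of NFIB site 2 and NFIX site 1. In the sequences printed above, its centre lay 4.5 and 30.5 bp from the summit at NFIA site 1, which holds 2 copies, 10.5 bp at NFIB sites 3 and 4, 21.5 bp at NFIB site 5, and 44.5 bp at NFIB site 1. NFIB site 6 held it at 117.5 bp, outside a stretch of the printed length. NFIB site 1 held a second copy at 216.5 bp, also outside the printed stretch. The strongest site of the family therefore lacked the word, while NFIA site 1, the weakest by merged −log10 p, and NFIB site 1 held 2 copies each.

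The longer PBX and MEIS word, TGATTGACAG or TGAGTGACAG, which contains TGACAG, was present at 1 of the 8, NFIB site 5, and at 4.93% of all sites. The single NFI word TTGGC was present at 6 of the 8 sites (75%) and at 59.9% of all. The full NFI palindrome, TTGGC and GCCAA with 5 bases between them, was present at 0 of the 8 and at 0.0774% of all. A TEAD word (GGAATG) was present at 3 of the 8 against 38.2% of all, a SOX word (ACAAAG or ACAATG) at 4 of the 8 against 71.0%, and an LHX word (TAATTA) at 2 of the 8 against 18.2%. The share of all sites lay inside the Wilson 95% interval of the 8 sites for each word. Such words are short and their presence is a description of the letters, not of a factor bound there.

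**Figure D5:**
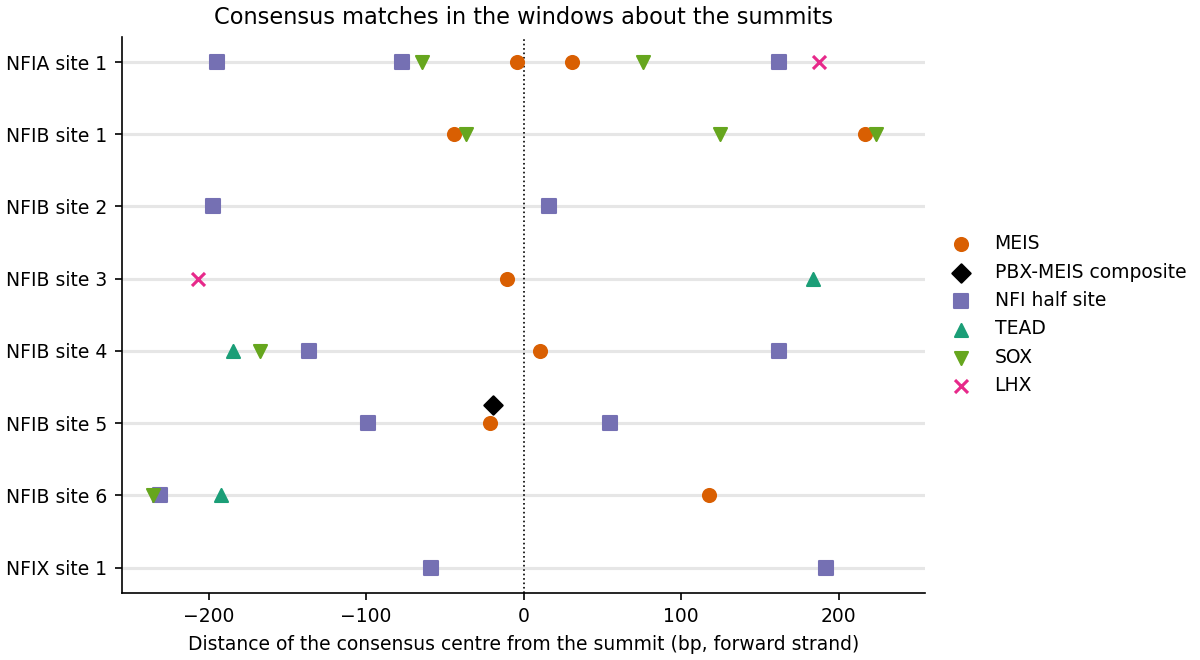
Position of the consensus words in the 500 bp windows of the 8 NFI sites (rows), as the distance of the centre of the word from the summit in bp on the forward strand. TGACAG (MEIS) lies within 45 bp of the summit at NFIA site 1 and NFIB sites 1, 3, 4 and 5, and NFIB site 2 and NFIX site 1 have none.

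Sites just outside the windows were counted up to 500 kb from the bodies, to see what the limit of 250 kb left out. NFIB gained 4, NFIA 1, NFIC 1 and NFIX 0. The strongest of those at NFIB (chr9:13759048-13760212) lay 322 kb beyond the 3′ end with a −log10 p of 144 and 150, and ranked 471, above every site inside the window, and the NFIB TSS was not its nearest, which was that of MPDZ at 480 kb. Another (chr9:13778259-13779405) lay 303 kb beyond the 3′ end with 18.8 and 24.7. The remaining 2 lay in intron 1 of FREM1, which encodes an extracellular matrix protein, with 26.6 and 36.1, and with 40.3 and 74.8. The region downstream of NFIB thus held its strongest site just beyond the limit, far from any protein-coding start.

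The other genes known to act with NFI factors in astrocyte formation, to respond to them, or to mark radial glia and astrocytes were taken as a list of 18. A reproducible site was found in the window of 6 of the 18 (33.3%, Wilson 95% interval 16.3 to 56.3), against 47.5% of all protein-coding genes, and the median was 0 sites in both. The list was chosen with earlier results of these data known, so the percentiles of its members are a description only. The 12 genes without a site lay at percentiles from 18.25 to 30.5. HES1, an effector of Notch signalling that maintains neural stem cells, had 7 sites, more than any of the 200 genes nearest to it in body length. Its strongest site (chr3:193797091-193799125) lay 56.3 kb upstream of the TSS, with a −log10 p of 307 and 406 and rank 179. AQP4, the water channel of astrocyte end feet, had 4 sites, the strongest (chr18:24356746-24358331) with 98.0 and 133, and lay at percentile 99.75. ZBTB20, a zinc finger factor of astrocyte formation, also had 4, the strongest in its intron 4 with 99.8 and 214, at percentile 74.75 for its long body.

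The strongest sites of HES1, AQP4 and ZBTB20 therefore exceeded NFIB site 4 in both replicates. APCDD1, an inhibitor of Wnt signalling, had 2 sites, the strongest with 21.8 and 21.7. GFAP, the intermediate filament of astrocytes, had 1 with 31.4 and 18.1, whose nearest protein-coding start was that of GJC1. ZCCHC24 had 1 with 49.8 and 59.5, which lay in intron 4 of the neighbouring ZMIZ1. No site was found in the windows of SOX9, STAT3, EZH2, FABP7, S100B, ALDH1L1, SLC1A3, SLC1A2, GJA1, TNC, MMD2 and INSC. These include the partners SOX9 and STAT3 and the glutamate transporters of astrocytes SLC1A2 and SLC1A3.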

How the data were processed

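Samples were grouped by their titles into 2 MEIS ChIP replicates and 2 Input samples. The authors trimmed paired reads of 36 bp with cutadapt 1.16, mapped them to GRCh37 with bowtie2 2.3.0, filtered them by samtools 1.2 for a mapping quality of 30 or more, removed duplicates with Picard 2.15.0, called peaks in each replicate against input with MACS2 (version not stated) at a p-value of 0.01, and combined the replicates with IDR 2.0.3. Sites in near-identical repeats can be missed at that mapping quality. In the replicate lists as deposited, each peak has a fold enrichment against input (a linear ratio), a −log10 p and a −log10 q. In the list of reproducible sites, the authors give each merged site a −log10 p, a scaled score that was not used, and a −log10 of the global IDR, which was turned back into the IDR. Its 8 columns of per-replicate values were not used, and a site took its replicate values from the strongest peak that overlapped it. The depth of each library and the wash protocol of each replicate are unknown.

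Windows, counts, distances and consensus words were computed in Python 3.11.15 with pandas 2.3.3, numpy 2.4.6, scipy 1.17.1 and pysam 0.24.0, and the counting was checked on simulated data. Annotation was GENCODE 44 on GRCh37, and 281 protein-coding genes without a canonical transcript were placed by their 5′ end. Peaks count as shared when they overlap by 1 bp or more. With 2 replicates of a single condition nothing could be tested between groups, so values are described with no p, and Wilson 95% intervals reflect how many peaks or sites there were and nothing else. The named genes are the 4 NFI genes with all their sites, the protein-coding genes nearest to a site or containing it, and the list of glial genes, of which those with the strongest site are given with values. The genes that lie at shared peaks outside the list or at sites beyond 250 kb were named after their values were seen. The members and lists were chosen with earlier results of these data known. Alternatives changed the window, the IDR limit, the number of genes compared, the strength of peaks, the overlap, the consensus window, the annotation and the replicates, each on its own.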

Additional observations from a re-analysis of the deposited data

How the results depend on the processing

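The 8 sites of the family became 14 with 500 kb on each side, 4 in the gene bodies alone and 2 at an IDR of 0.001 or less, and 4 to 6 when one replicate was left out and the strongest peaks of the other were used. The 6 sites of NFIB became 10, 4 and 1 under the same settings and 3 to 5 without one replicate. The percentile of NFIB among genes of like length, 97, was 59.25 at an IDR of 0.001 or less and 82 to 95 without one replicate. Of the 37 peaks of replicate 1 and the 53 of replicate 2, 21 and 23 reached a −log10 p of 5. The rank of the NFIX site, 794, was 673 to 1112 without one replicate. The share of sites with TGACAG, 75%, was 62.5% in windows of 200 bp, 85.7% among the 7 sites whose nearest protein-coding start was that of an NFI gene, and 66.7% to 75% without one replicate. Sites with a neighbour numbered 2 at 25 kb in place of 0 at 10 kb. The median distance to a TSS of the gene fell from 187 kb to 50.3 kb when any annotated transcript of the gene counted. Over 9 alternatives each, the percentile ran from 11.25 to 63.9 for NFIA and from 59.25 to 99.6 for NFIB. It ran from 20 to 40.75 for NFIC and from 39.25 to 78.75 for NFIX.

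The single site of NFIA was not among the strongest 5169 peaks of either replicate alone, and was lost with 100 kb on each side. The site of NFIX was not counted when sites went to the gene with the nearest start, and NFIC had a site at 500 kb. No paired analysis was possible because neither Input sample, which the labels number like the ChIP replicates, has values of its own in the peak lists. Precision is limited by 2 replicates, by unknown depth and by 8 sites.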
